A study of Mus musculus with 12 samples.

Results

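Imprinted genes are transcribed mainly from the copy inherited from 1 parent, and 10 of them outside the best studied growth clusters are described here in mouse pluripotent stem cells that lack Lin28a, Lin28b or both. The genes were Ndn, Snrpn, Peg3, Mest, Grb10, Plagl1, Impact, Nnat, Gnas and Peg10, found by matching each symbol, ignoring case, to the rows of the unprocessed gene-level table. Of the 10 symbols 9 had a row, 1 each, among the 30854 genes of the table. Snrpn had no row of its own and is not analysed here.

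Imprinting rests on DNA methylation that is laid down in the egg or the sperm at imprinting control regions and is kept through the cell divisions of the embryo. Cultured pluripotent stem cells are known to lose or gain such methylation, so the level of an imprinted transcript can differ between lines that are otherwise alike. The arrays measure transcripts from both parental copies together and give no methylation. Lin28a and Lin28b are paralogous RNA-binding proteins that block the maturation of the microRNA let-7.

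The 12 samples form 4 groups of 3, each hybridised to an Illumina mouse WG-6 BeadChip array. The groups were loss of function of both paralogs (double loss), loss of Lin28a with Lin28b intact, loss of Lin28b with Lin28a intact, and wild type. The labels give embryonic stem cells as the tissue, the design text calls the wild-type controls iPS cells, and all were grown in serum medium with Lif, with no other treatment named. The titles carry a single line name per genotype, so line and genotype cannot be told apart in any comparison, and where replicates are not separate cultures a p-value measures only technical spread. By array position, chip 2 held the double-loss and Lin28b-loss samples and chip 1 the Lin28a-loss and wild-type samples. Chip and genotype cannot be told apart in comparisons that cross the chips. The Y-linked gene Eif2s3y, read by 2 probes, was above background on 3 of 3 arrays of double loss and of Lin28b loss and on 0 of 3 of Lin28a loss and of wild type, so the chips also differ in a Y-linked transcript, whose part in the results across chips was not tested.

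Mean raw signal per array was 325.4 to 596.7, and 9377 to 10773 genes per array had a detection p under 0.01, called above background here. Lin28a, the targeted gene, had normalized log2 intensities of 5.48 ± 0.17 in double loss, 5.66 ± 0.08 in Lin28a-loss cells, 7.03 ± 0.17 in Lin28b-loss cells and 7.97 ± 0.1 in wild type (SD, n = 3 each here and below). Lin28b was above background on no array by either of its 2 entries, wild type included, so its loss could not be checked. All 11 pluripotency markers, Pou5f1, Sox2 and Nanog among them, were above background on every array of every group. Of these Zfp42 (Rex1) differed from wild type by 0.22 ± 0.11 in double loss (adjusted p = 0.152), -2.1 ± 0.11 in Lin28a-loss cells (adjusted p = 3.19e-08) and -1.7 ± 0.11 in Lin28b-loss cells (adjusted p = 2.51e-07), by the test described below. Sox2 differed by -0.63 ± 0.14 in Lin28a loss against wild type (adjusted p = 0.00404, and 0.216 with arrays scaled to a common median). Utf1 differed by -0.67 ± 0.12 in the same comparison (adjusted p = 0.000991, and 0.0151 with that scaling). Of the 11 markers 3 were lower and 0 higher there, beside 18.4% and 18.3% of all tested genes. The part of these markers in the values of the imprinted genes was not tested. Of 14 fibroblast markers, 11 or 12 per group were above background on no array of the group, Col1a1, Col1a2, Col3a1 and Thy1 among them in all 4. Summed background-corrected signals of the 14 were 631 to 1023.3 in double loss, 684 to 960.3 in Lin28a loss, 469.5 to 546.5 in Lin28b loss and 699 to 1123.8 in wild type. In these bulk samples fewer cells of a type and less RNA per cell cannot be told apart.

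Promoter sequence is shown for Grb10, Ndn and Peg3, which differed most between groups among the members tested below, and for Mest, which differed in the same direction with Lin28a loss on both chips. The 250 bases upstream of an annotated start are from RefSeq on GRCm38.p6, each 5′ to 3′ on the gene's strand. Capitals mark CGCATGCG, the centre of the sequence bound by the transcription factor NRF1, and TGCCGC on either strand, the letters that the imprint-protecting protein ZFP57 binds when methylated. The Ndn window is chr7:62348027-62348276 on the plus strand, the Peg3 window chr7:6730420-6730669 on the minus strand, the Mest window, at its second annotated start, chr6:30737800-30738049 on the plus strand, and the Grb10 window chr11:12037421-12037670 on the minus strand.
Ndn: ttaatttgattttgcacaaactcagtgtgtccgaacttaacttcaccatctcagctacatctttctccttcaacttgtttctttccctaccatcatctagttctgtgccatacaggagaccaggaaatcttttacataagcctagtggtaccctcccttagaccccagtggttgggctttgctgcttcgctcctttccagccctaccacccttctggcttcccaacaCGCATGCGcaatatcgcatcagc
Peg3: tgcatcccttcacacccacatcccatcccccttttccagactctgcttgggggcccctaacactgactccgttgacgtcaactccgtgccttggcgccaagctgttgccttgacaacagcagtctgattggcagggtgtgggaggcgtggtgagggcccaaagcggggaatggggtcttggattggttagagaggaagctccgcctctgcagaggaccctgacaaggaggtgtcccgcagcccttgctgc
Mest: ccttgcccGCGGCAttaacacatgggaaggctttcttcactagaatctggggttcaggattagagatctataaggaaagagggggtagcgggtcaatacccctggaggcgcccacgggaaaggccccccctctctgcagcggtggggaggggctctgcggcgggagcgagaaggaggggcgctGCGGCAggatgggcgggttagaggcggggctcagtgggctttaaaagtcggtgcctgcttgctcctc
Grb10: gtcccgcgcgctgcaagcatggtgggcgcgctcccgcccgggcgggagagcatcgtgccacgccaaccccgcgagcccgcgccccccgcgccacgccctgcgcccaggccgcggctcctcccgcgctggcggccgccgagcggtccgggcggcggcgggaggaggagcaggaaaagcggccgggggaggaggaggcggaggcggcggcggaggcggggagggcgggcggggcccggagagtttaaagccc

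The Grb10 window held 40 CpG dinucleotides, more than 98.7% of the 32851 windows of that length, against a median of 6. A window at another annotated Grb10 start, not shown, held 8. The Mest window held 14, that at its first annotated start 7, the Peg3 window 8 and the Ndn window 5. CGCATGCG is its own reverse complement and occurred in 1.55% of all windows. Among the 17 windows of the members it occurred in 5, which belong to Ndn, Snrpn and Nnat. TGCCGC occurred in 8.68% of all windows and in 3 of the 17, 1 at Plagl1 and 2 at Mest that overlap almost wholly, while the window at the first Mest start held none. A match is a description of the letters and says nothing of binding in these cells. Peg10 had no window in the table used. Windows on chromosome 18, which holds Impact, were left out of the counts for members but not of those for all windows.

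A gene was tested where it was above background on all 3 arrays of at least 1 group, which 4 of the 9 members were: Ndn, Mest, Impact and Gnas. A further 2, Grb10 and Peg3, missed this by their detection p while their signals exceeded, on all 12 arrays, the lowest signal of any single-probe gene above background on the same array. The detection p of genes summarised over several probes was often high for bright genes. Among genes with a raw signal of at least 300 on every array, 0 of 2348 with 1 probe missed detection on an array, against 373 of 1580 with 2 or more. Grb10 and Peg3 have 3 probes each and are therefore reported from the fit without a filter, over 28852 genes. Plagl1, Nnat and Peg10 lay at or near background and are given by their raw signals, with no test.

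**Figure D1:**
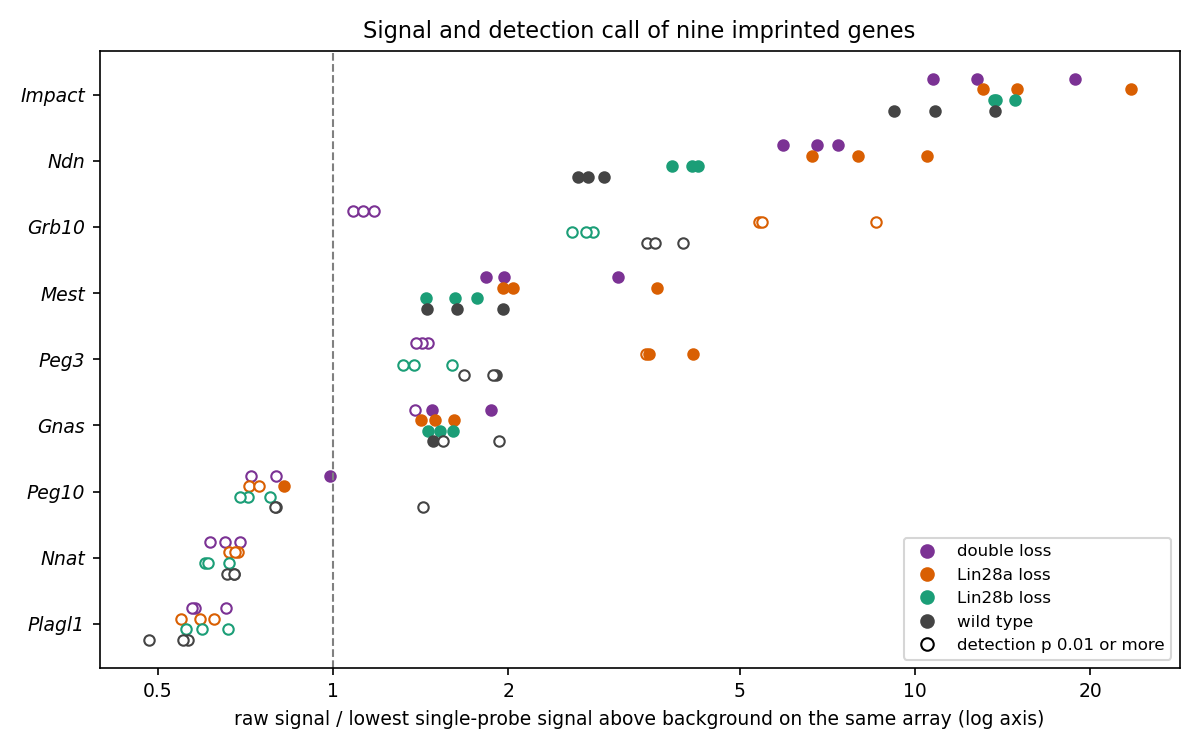
Raw signal of 9 imprinted genes on each of 12 arrays, divided by the lowest signal of a single-probe gene above background on that array (log axis). Filled points have a detection p under 0.01 and open points do not. All 12 Grb10 points are open and lie to the right of the dashed line at 1, while the Plagl1 and Nnat points lie to its left.

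Grb10 encodes an adaptor that binds the insulin and IGF1 receptors and restrains growth, and it is expressed from the maternal copy in most mouse tissues. It was the member with the widest spread between groups. Its normalized log2 intensities were 5.76, 5.99 and 6.04 in double loss, 8.68, 8.78 and 8.96 in Lin28a loss, 7.66, 7.7 and 7.48 in Lin28b loss, and 7.9, 8.2 and 8.11 in wild type. No 2 groups overlapped: Lin28a loss was highest, then wild type, then Lin28b loss, with double loss far below. Raw signals on the 3 arrays were 71.2 to 90.2 in double loss, 430.7 to 771.8 in Lin28a loss, 190.1 to 203.4 in Lin28b loss and 306.9 to 443.9 in wild type. Those of double loss were close to the lowest single-probe signals above background on the same arrays, 63.2 to 76.6. Differences that involve double loss, the interaction below among them, thus rest on values near that floor. Because no group passed detection, changes are given as log2 differences of measured values and not as folds.

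Within chip 1, Grb10 was higher in Lin28a-loss than in wild-type cells by 0.74 ± 0.11 on the log2 scale (SE, limma over all genes, adjusted p = 0.0011). Within chip 2 the sign was opposite, and Grb10 fell by 1.68 ± 0.11 in double loss against Lin28b loss (adjusted p = 5.24e-06). The difference between these effects of Lin28a loss, the interaction, was -2.42 ± 0.15 (adjusted p = 5.21e-06). An additive chip effect cancels in the interaction. A fit that adjusts the Lin28a effect for chip averages these opposed differences and gave -0.47 ± 0.38 (adjusted p = 0.609). Across chips, Grb10 fell by 2.14 ± 0.11 in double loss against wild type (adjusted p = 9.15e-07) and differed by -2.87 ± 0.11 in double loss against Lin28a loss (adjusted p = 8.6e-08). It was 1.19 ± 0.11 higher in Lin28a loss than in Lin28b loss (adjusted p = 2.3e-05). The fall in Lin28b loss against wild type, -0.46 ± 0.11 (adjusted p = 0.0175), was lost when wild type replicate 2, wild type replicate 3 or Lin28b loss replicate 3 was left out (adjusted p = 0.0678, 0.0588 and 0.073).

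**Figure D2:**
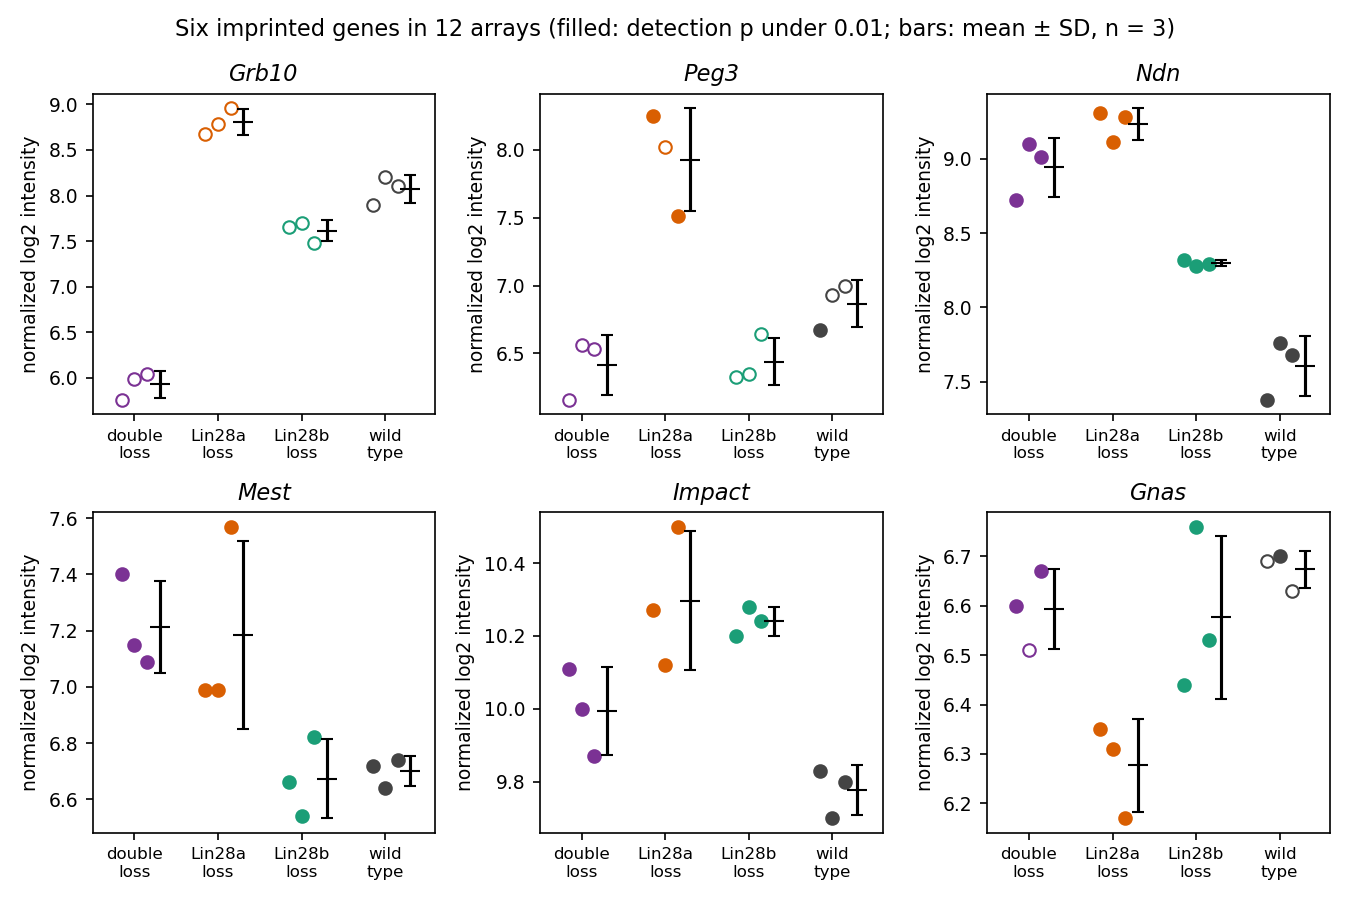
Normalized log2 intensity of 6 imprinted genes in each array of the 4 groups, with the mean ± SD of 3 arrays as bars. Filled points have a detection p under 0.01. Grb10 is lowest in double loss (5.93 ± 0.15) and highest in Lin28a loss (8.8 ± 0.14), while Ndn is lowest in wild type (7.61 ± 0.2).

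Ndn encodes necdin, a MAGE family protein that restrains the cell cycle and is abundant in neurons, and it is expressed from the paternal copy of the region whose human counterpart is affected in Prader-Willi syndrome. It was above background on all 12 arrays. Its normalized log2 intensities were 8.72, 9.1 and 9.01 in double loss, 9.31, 9.11 and 9.28 in Lin28a loss, 8.32, 8.28 and 8.29 in Lin28b loss, and 7.38, 7.76 and 7.68 in wild type. Every array of every loss group was above every wild-type array. Ndn rose in Lin28a loss against wild type by 1.63 ± 0.12, or 3.09-fold (adjusted p = 5.55e-07), in double loss against wild type by 1.34 ± 0.12 (adjusted p = 3.25e-06) and in Lin28b loss against wild type by 0.69 ± 0.12 (adjusted p = 0.000721). The last of these, which crosses the chips, missed the threshold when arrays were scaled to a common median (0.44, adjusted p = 0.116). Folds are on a scale to which an offset of 16 was added, which makes those of dim genes too small.

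Within chip 2, Ndn was also higher in double loss than in Lin28b loss, by 0.65 ± 0.12 (adjusted p = 0.00117). This effect of Lin28a loss was smaller than that within chip 1, with an interaction of -0.98 ± 0.17 (adjusted p = 0.000688). Adjusted for chip the effect was 1.14 ± 0.17 (adjusted p = 0.000557). Ndn was 0.94 ± 0.12 higher in Lin28a loss than in Lin28b loss (adjusted p = 3.29e-05). Between double loss and Lin28a loss the difference was -0.29 ± 0.12 (adjusted p = 0.0577, 95% interval -0.55 to -0.03). Zscan5b was among the tested genes whose centred values over 12 arrays lay closest to those of Ndn, with a root mean square difference of 0.199 on the log2 scale.

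Peg3 encodes a zinc finger protein expressed from the paternal copy and abundant in brain and placenta. Its normalized log2 intensities were 6.16, 6.56 and 6.53 in double loss, 8.25, 8.02 and 7.51 in Lin28a loss, 6.33, 6.35 and 6.64 in Lin28b loss, and 6.67, 6.93 and 7 in wild type. The 3 Lin28a-loss arrays stood above the other 9, and the double-loss and Lin28b-loss arrays overlapped. Detection was passed on 0 arrays of double loss, 2 of Lin28a loss, 0 of Lin28b loss and 1 of wild type. Peg3 rose in Lin28a loss against wild type by 1.06 ± 0.19 (adjusted p = 0.0031), within chip 1. Within chip 2 the difference between double loss and Lin28b loss was -0.02 ± 0.19 (adjusted p = 0.975, 95% interval -0.43 to 0.39), where neither group was well above background. The interaction of measured values was -1.08 ± 0.26 (adjusted p = 0.0186). Adjusted for chip the effect of Lin28a loss was 0.52 ± 0.21 (adjusted p = 0.194).

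Across chips the log2 difference of Peg3 was -1.51 ± 0.19 in double loss against Lin28a loss (adjusted p = 0.000172). It was 1.49 ± 0.19 in Lin28a loss against Lin28b loss (adjusted p = 0.000197). In double loss and in Lin28b loss Peg3 was not well above background, so these are differences of measured values and not folds. Against wild type, which had a mean of 6.87, the difference was -0.45 ± 0.19 in double loss (mean 6.42, adjusted p = 0.158). It was -0.43 ± 0.19 in Lin28b loss (mean 6.44, adjusted p = 0.189), and neither difference passed the threshold. Both passed the threshold without the brightest arrays of wild type, Lin28a loss and double loss (adjusted p = 0.0394 for double loss and 0.00927 for Lin28b loss) and with arrays scaled to a common median (0.0112 and 0.0143).

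Mest, also called Peg1, encodes an enzyme-like protein of the alpha/beta hydrolase family that is expressed from the paternal copy in growing mesodermal tissue and fat. It was above background on all 12 arrays. Its normalized log2 intensities were 7.4, 7.15 and 7.09 in double loss, 6.99, 6.99 and 7.57 in Lin28a loss, 6.66, 6.54 and 6.82 in Lin28b loss, and 6.72, 6.64 and 6.74 in wild type. The 6 arrays without Lin28a lay above the 6 arrays with it. Mest rose in double loss against Lin28b loss by 0.54 ± 0.15 (adjusted p = 0.0125) and in Lin28a loss against wild type by 0.48 ± 0.15 (adjusted p = 0.0223). Adjusted for chip the effect of Lin28a loss was 0.51 ± 0.11 (adjusted p = 0.00552), and the interaction was 0.06 ± 0.21 (adjusted p = 0.847, 95% interval -0.39 to 0.51).

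Across chips Mest rose in double loss against wild type by 0.52 ± 0.15 (adjusted p = 0.0152) and was 0.51 ± 0.15 higher in Lin28a loss than in Lin28b loss (adjusted p = 0.0117). Its differences were -0.02 ± 0.15 between Lin28b loss and wild type (adjusted p = 0.917) and 0.04 ± 0.15 between double loss and Lin28a loss (adjusted p = 0.858). The rise in Lin28a loss against wild type leaned on replicate 3 of Lin28a loss: without it the difference was 0.29 (adjusted p = 0.0643). It also missed the threshold without wild type replicate 2 (adjusted p = 0.0647) and in the fit without a filter on dim genes (adjusted p = 0.058). The call of this rise was lost under 5 of 22 alternatives. Scaling arrays to a common median left no Mest call in any comparison (adjusted p of at least 0.061). The differences under that scaling were 0.56 in Lin28a loss and 0.34 in double loss against wild type, 0.59 in double loss against Lin28b loss, 0.81 in Lin28a loss against Lin28b loss and 0.57 adjusted for chip. The rise in double loss against wild type was lost without double loss replicate 1 (adjusted p = 0.0581). Without Lin28b loss replicate 2, the differences of double loss and of Lin28a loss from Lin28b loss were lost as well (adjusted p = 0.0554 and 0.0511).

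Impact encodes an inhibitor of the amino-acid-sensing kinase GCN2 and is expressed from the paternal copy in mice. It was above background on all 12 arrays. Its normalized log2 intensities were 10.11, 10 and 9.87 in double loss, 10.27, 10.12 and 10.5 in Lin28a loss, 10.2, 10.28 and 10.24 in Lin28b loss, and 9.83, 9.7 and 9.8 in wild type. Each loss group lay above wild type on every array, with double loss closest to it. Impact rose by 0.52 ± 0.11 in Lin28a loss (adjusted p = 0.00195) and by 0.47 ± 0.11 in Lin28b loss against wild type (adjusted p = 0.00426). In double loss against wild type the difference was 0.22 ± 0.11 (adjusted p = 0.124).

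The effect of Lin28a loss on Impact within chip 2 was -0.25 ± 0.11 (double loss against Lin28b loss, adjusted p = 0.0874), and the interaction was -0.77 ± 0.15 (adjusted p = 0.00152). Adjusted for chip, the effect was 0.14 ± 0.13 (adjusted p = 0.516). Impact was lower in double loss than in Lin28a loss by 0.3 on the log2 scale (difference -0.3 ± 0.11, adjusted p = 0.0281), a call lost without replicate 1 or 3 of Lin28a loss (adjusted p = 0.051 and 0.107) and without replicate 2 or 3 of double loss (adjusted p = 0.0617 and 0.111). With arrays scaled to a common median no Impact difference passed (interaction -0.53, adjusted p = 0.385).

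Gnas encodes the stimulatory G protein subunit that couples receptors to adenylyl cyclase, from a locus with several imprinted promoters. Its single row is read by 8 probes, and which transcripts they read is not given. Normalized log2 intensities were 6.6, 6.51 and 6.67 in double loss, 6.35, 6.31 and 6.17 in Lin28a loss, 6.44, 6.76 and 6.53 in Lin28b loss, and 6.69, 6.7 and 6.63 in wild type. Lin28a loss lay below the other groups on every array, and the other 3 groups overlapped. Gnas was above background on 2 arrays of double loss, on all 3 of Lin28a loss and of Lin28b loss, and on 1 of wild type. Its log2 difference was -0.4 ± 0.1 between Lin28a loss and wild type (adjusted p = 0.00654), against 0.01 ± 0.1 in double loss compared with Lin28b loss (adjusted p = 0.939). Adjusted for chip the effect of Lin28a loss was -0.19 ± 0.09 (adjusted p = 0.163). The difference between Lin28a loss and wild type missed the threshold when arrays were scaled to a common median (-0.29, adjusted p = 0.384).

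The Gnas interaction was 0.41 ± 0.14 (adjusted p = 0.0327) and lost its call in 10 of 20 alternatives (adjusted p up to 0.477). Gnas was 0.31 ± 0.1 higher in double loss than in Lin28a loss (adjusted p = 0.0157) and 0.3 lower in Lin28a loss than in Lin28b loss (difference -0.3 ± 0.1, adjusted p = 0.0194). Neither of these 2 calls held without replicate 3 of Lin28a loss (adjusted p = 0.0515 and 0.064). The first was also lost without replicate 3 of double loss (adjusted p = 0.0614) and without the 3 brightest arrays (adjusted p = 0.0577), and the second without replicate 2 of Lin28b loss (adjusted p = 0.102). Scaling arrays to a common median brought the first to 0.01 (adjusted p = 0.988) and turned the second to 0.02 (adjusted p = 0.939).

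**Figure D3:**
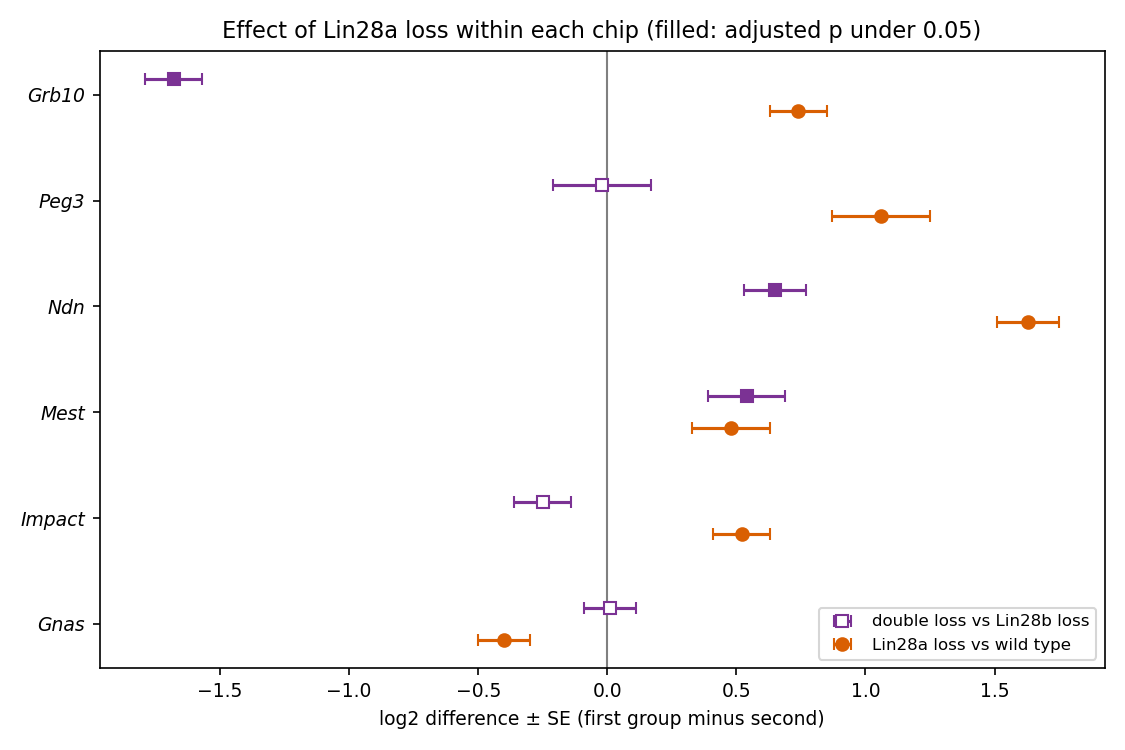
Log2 difference ± SE for the loss of Lin28a within each chip, as double loss against Lin28b loss (squares, chip 2) and Lin28a loss against wild type (circles, chip 1), for 6 imprinted genes. Filled symbols passed an adjusted p under 0.05. Grb10 and Peg3 are from the fit without a filter, the others from that of 9920 genes. Grb10 lies at -1.68 on chip 2 and 0.74 on chip 1, while Mest lies at 0.54 and 0.48.

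Plagl1 encodes a zinc finger transcription factor of the paternal copy that restrains growth. It was above background on none of 12 arrays, with raw signals of 41.4 to 44.3 in double loss, 48.4 to 53.1 in Lin28a loss, 42.3 to 44.8 in Lin28b loss and 49.9 to 53.6 in wild type. Nnat encodes neuronatin, a small membrane protein of neurons and endocrine cells expressed from the paternal copy. It too was above background on no array, with raw signals of 43.8 to 50 in double loss, 52.3 to 61 in Lin28a loss, 45 to 46.1 in Lin28b loss and 58.3 to 75.2 in wild type. Estimated background means of the same arrays were 42 to 47.88 in double loss, 50.17 to 53.59 in Lin28a loss, 43.81 to 46.26 in Lin28b loss and 52.74 to 61.18 in wild type.

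Peg10, a paternally expressed gene derived from a retrotransposon and needed for the mouse placenta, was above background on 1 array of double loss and 1 of Lin28a loss. Its raw signals were 50.5 to 75.6 in double loss, 59 to 74.2 in Lin28a loss, 52.4 to 53.4 in Lin28b loss and 70.7 to 158.5 in wild type. The value of 158.5 came from wild type replicate 1, the array of highest mean signal, which did not pass detection for Peg10.

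Of the 4 tested members, 2 rose and 0 fell in double loss against wild type, where 37.1% of 9920 tested genes changed, 18% upwards and 19.1% downwards. In Lin28a-loss cells 3 rose and 1 fell against wild type, where 36.7% changed (18.3% up and 18.4% down). Lin28b-loss cells had 2 that rose and 0 that fell against wild type, where 36.1% changed (18.9% up and 17.2% down). Between double loss and Lin28b loss 2 rose and 0 fell, beside 36.6% of all tested genes (16.9% up and 19.7% down). Between double loss and Lin28a loss 1 was higher and 1 lower, beside 54% (26.4% up and 27.5% down). Lin28a loss had 2 that were higher and 1 lower than Lin28b loss, beside 53.5% (25.4% up and 28.1% down). The interaction was above 0 for 1 and below 0 for 2, beside 37.8% of all tested genes (17.5% above and 20.3% below), and the chip-adjusted effect of Lin28a loss was a rise for 2 and a fall for 0, beside 22.1% (10.6% up and 11.5% down).

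In the fit without a filter, where Grb10 and Peg3 were tested, 14.5% of 28852 genes changed in Lin28a loss against wild type, 14.2% in double loss against Lin28b loss, 14.9% had an interaction and 7.61% a chip-adjusted effect. There 15% changed in double loss and 13.7% in Lin28b loss against wild type, 23% in double loss against Lin28a loss, and 22.4% in Lin28a loss against Lin28b loss. With a filter on signal in place of detection, chosen after seeing the data, 6 members were among 10913 tested genes. Of these 4 changed in double loss against Lin28a loss (54.6% of all genes), 5 differed between Lin28a loss and Lin28b loss (53.8%) and 5 had an interaction (38.7%). The median log2 difference of the 4 tested members was 0.37 in double loss, 0.5 in Lin28a loss and 0.22 in Lin28b loss against wild type, beside -0.01, -0.03 and 0 for all tested genes.

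Genes near the members in the same imprinted regions were taken from a list of 27, of which 25 had a row and 6 were tested. In double loss against wild type 2 of the 6 rose and 3 fell, in Lin28a loss 2 rose and 1 fell, and in Lin28b loss 2 rose and 3 fell. Of all tested genes 37.1%, 36.7% and 36.1% changed in these comparisons. Beside Grb10 lie Ddc, which encodes the decarboxylase that makes dopamine and serotonin, and Cobl, which encodes an actin nucleator. Ddc averaged 9.37 ± 0.1 in double loss, 8.63 ± 0.14 in Lin28a-loss cells, 9.01 ± 0.15 in Lin28b-loss cells and 8.69 ± 0.05 in wild type. Where Grb10 was lowest, in double loss, Ddc was higher than in wild type by 0.68 ± 0.1 (adjusted p = 0.000227) and Cobl by 0.46 ± 0.09 (adjusted p = 0.00167). Within chip 2, double loss against Lin28b loss, Ddc rose by 0.36 ± 0.1 (adjusted p = 0.0164) and Cobl by 0.32 ± 0.09 (adjusted p = 0.0169). Neither neighbour was low in double loss, where Grb10 was. Cobl was also higher than in wild type in Lin28a loss, where Grb10 was highest (0.4 ± 0.09, adjusted p = 0.00453). With arrays scaled to a common median Ddc and Cobl kept these signs and lost their calls (adjusted p of 0.165 to 0.399). Over the 6 neighbours 0 rose and 1 fell in double loss against wild type under that scaling. In Lin28a loss 0 rose and 0 fell, and in Lin28b loss 0 rose and 2 fell. Of 9920 tested genes 1726, 1401 and 1804 changed in these comparisons under that scaling.

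Mkrn3, a paternally expressed RING finger gene near Ndn, fell by 0.9 on the log2 scale in double loss against wild type (difference -0.9 ± 0.29, adjusted p = 0.027) and by 0.92 in Lin28b loss (-0.92 ± 0.29, adjusted p = 0.024), where Ndn rose. Its difference in Lin28a loss was -0.42 ± 0.29 (adjusted p = 0.28). Ppp1r9a, which encodes the actin-binding scaffold neurabin and lies near Peg10, averaged 7.83 ± 0.1 in double loss, 8.82 ± 0.2 in Lin28a-loss cells, 8.51 ± 0.19 in Lin28b-loss cells and 8.18 ± 0.06 in wild type. Its interaction was -1.32 ± 0.17 (adjusted p = 7.71e-05), with a rise of 0.64 ± 0.12 in Lin28a loss against wild type (adjusted p = 0.00123) and a difference of -0.68 ± 0.12 in double loss against Lin28b loss (adjusted p = 0.000816). Pon2, a paraoxonase gene of the same region, was 0.62 ± 0.12 higher in double loss than in Lin28b loss (adjusted p = 0.00174). Against wild type Pon2 differed by 0.08 ± 0.12 in double loss (adjusted p = 0.641) and by -0.53 ± 0.12 in Lin28b loss (adjusted p = 0.00437). The latter call held under median scaling (-0.78, adjusted p = 0.0296). Blcap, whose intron holds Nnat, fell in all 3 loss groups against wild type, with differences of -0.69 ± 0.1 in double loss, -0.44 ± 0.1 in Lin28a loss and -0.51 ± 0.1 in Lin28b loss (adjusted p = 0.000187, 0.00446 and 0.00185). Under median scaling the Mkrn3 calls were lost at larger differences (-1.08, adjusted p = 0.142 in double loss, and -1.16, adjusted p = 0.105 in Lin28b loss). The Ppp1r9a interaction held (-1.25, adjusted p = 0.0481), as did the falls of Blcap in double loss and Lin28b loss (-0.84 and -0.78, adjusted p = 0.0201 and 0.0305). Among the calls given above for Ppp1r9a, Pon2 and Blcap, the same scaling ended 4 while the differences stayed of similar size. They were Blcap in Lin28a loss (-0.46, adjusted p = 0.216) and Pon2 in double loss against Lin28b loss (0.66, adjusted p = 0.0713). The others were Ppp1r9a in Lin28a loss against wild type (0.64, adjusted p = 0.157) and in double loss against Lin28b loss (-0.61, adjusted p = 0.174).

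**Figure D4:**
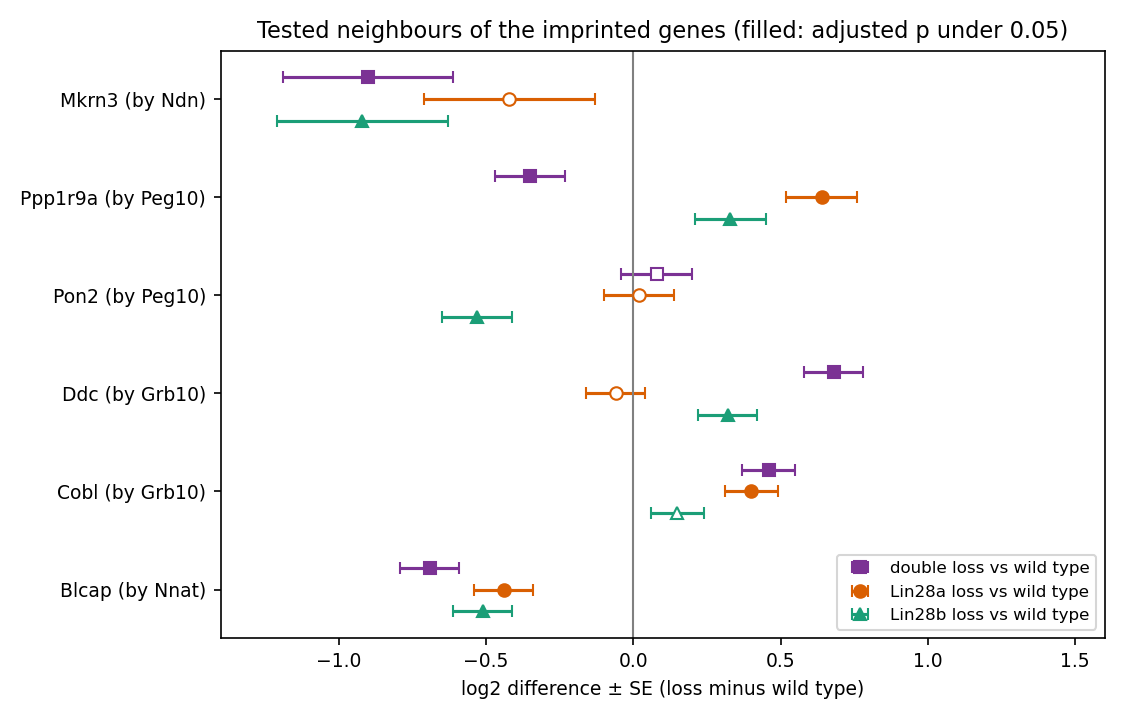
Log2 difference ± SE against wild type for 6 tested neighbours of the imprinted genes, in double loss (squares), Lin28a loss (circles) and Lin28b loss (triangles), filled where the adjusted p was under 0.05. Ddc and Cobl, next to Grb10, lie at 0.68 and 0.46 in double loss, and Blcap is below 0 in all 3 groups.

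Of 37 other imprinted genes listed, 16 were tested. Set against Lin28b loss, double loss had 1 that rose and 7 that fell, beside 16.9% and 19.7% of all tested genes. These counts were 0 and 4 under median scaling, where 1215 of 9920 genes changed. Without that scaling the median difference was -0.35, beside -0.01 for all tested genes. Set against wild type, Lin28a loss had 3 that rose and 5 that fell, beside 18.3% and 18.4% of all tested genes. These counts were 0 and 3 under median scaling, where 1401 of 9920 genes changed. Without that scaling the median difference was -0.15, beside -0.03. The largest changes there were those of the long noncoding RNA gene Meg3 (-2.84 ± 0.21, adjusted p = 6.15e-07), of Igf2, a growth factor gene (-1.41 ± 0.16, adjusted p = 2.06e-05), of the noncoding RNA gene H19 (-1.23 ± 0.24, adjusted p = 0.00142) and of the amino acid transporter gene Slc38a4 (0.6 ± 0.12, adjusted p = 0.00199). Under median scaling Slc38a4 alone of these 4 missed the threshold (0.69, adjusted p = 0.0865). The 4 with the largest changes in double loss against Lin28b loss were Phlda2, a placental growth restrainer (-1.49 ± 0.16), the Polycomb-group gene Sfmbt2 (-1.12 ± 0.18, with 1 of 3 double-loss arrays above background), Trappc9, a vesicle transport gene (-1.11 ± 0.17), and Igf2 (-0.85 ± 0.16), with adjusted p of 1.81e-05, 0.000412, 0.000303 and 0.00114. The fall of Igf2 missed the threshold under median scaling (-0.68, adjusted p = 0.0812). Grb10, at -1.68, fell in the same comparison, while Ndn and Mest rose.

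Genes of proteins that keep or write imprints were taken from a list of 14, of which 12 were tested. Set against wild type, Lin28a loss had 1 that rose and 4 that fell, beside 18.3% and 18.4% of all tested genes. The median difference of the 12 was -0.09, beside -0.03 for all tested genes. The 4 largest changes there were falls of Dppa3, which protects methylation in the early embryo (-1.31 ± 0.14, adjusted p = 1.85e-05), of the methyltransferase gene Dnmt3b (-0.46 ± 0.1, adjusted p = 0.00334), and of Trim28 and Setdb1, whose proteins act with ZFP57 (-0.39 ± 0.13 and -0.36 ± 0.12, adjusted p = 0.0368 and 0.0371). Between double loss and Lin28b loss 1 rose, the insulator protein gene Ctcf (0.39 ± 0.14, adjusted p = 0.0377), and 2 fell, Dnmt3b (-0.6 ± 0.1, adjusted p = 0.000525) and the methylcytosine dioxygenase gene Tet1 (-0.29 ± 0.11, adjusted p = 0.0471). Of all tested genes 16.9% rose and 19.7% fell there. Under median scaling only Dppa3 remained lower in Lin28a loss against wild type (adjusted p = 3.75e-05), and 0 of the 12 changed in double loss against Lin28b loss. Of 9920 tested genes 1401 and 1215 changed in these comparisons under that scaling. Zfp57 differed by -0.04 ± 0.14 in Lin28a loss against wild type (adjusted p = 0.847) and by -0.32 ± 0.14 in double loss against Lin28b loss (adjusted p = 0.0802).

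Markers of other cell types moved between the groups. The summed background-corrected signal of 11 trophoblast markers was 506 to 916.6 in double loss, 962.1 to 1490.5 in Lin28a loss, 991.3 to 1087.6 in Lin28b loss and 1955.1 to 3584 in wild type. Elf5, Gata3 and Hand1 of that list were above background on no array. The background-corrected sum of 11 endoderm markers was 1656.1 to 2900.2 in double loss, 2757.7 to 3928.2 in Lin28a loss, 2188.8 to 2471 in Lin28b loss and 1829.1 to 2914.8 in wild type, with Gata4, Foxa2, Sox17 and Afp above background on no array. Of 8 neuroectoderm markers 7 were above background on no array, Pax6, Sox1 and Tubb3 among them. The other, the neural progenitor marker Nes, rose by 0.35 ± 0.12 in double loss, 0.38 ± 0.12 in Lin28a loss and 0.87 ± 0.12 in Lin28b loss against wild type (adjusted p = 0.0368, 0.0245 and 0.000119), and under median scaling its differences were 0.15, 0.5 and 0.65 (adjusted p = 0.641, 0.105 and 0.0307). Of 6 mesoderm markers all but T, which passed on the wild-type arrays, were above background on none. The part of these cell types in the values of the imprinted genes was not tested.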

How the data were processed

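Total RNA of 12 samples was hybridised to Illumina mouse WG-6 arrays. Per the file headers, the gene-level table holds GenomeStudio mean bead intensity on a linear scale, deposited without background subtraction or normalization (GSGX version 1.9.0). Each detection p-value was deposited in the same table, per the file headers. The table has 1 value per gene where probes had been assumed in the plan. A total of 72 value columns went unused: 48 of the gene-level table, 12 of a normalized probe table whose columns name no sample, and 12 of a probe table that no file pairs with gene names.

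Background was inferred from detection p of 21863 single-probe genes and corrected by normexp (limma 3.58.1, R 4.3.3). Corrected signals plus an offset of 16 were put on the log2 scale and quantile normalized. A gene was tested with a detection p under 0.01 on all 3 arrays of a group. This gave 10372 genes, and 9920 after 452 further entries of a symbol were dropped. The lmFit and eBayes test of limma used all 12 arrays in 8 comparisons, with Benjamini-Hochberg adjustment over all genes of each, and a call at an adjusted p under 0.05. Tested on simulated data of 9920 genes, with changes put into the Lin28a-loss arrays alone, differences of 1 on the log2 scale were called in 95% of cases for Lin28a loss against wild type and in 72% for the interaction, and differences of 0.5 in 48% and 18%. Only 100 genes were changed by each size, far fewer than were called in the data. These percentages therefore do not give the share of true changes called in the data. The number of arrays limits the precision. Replicate numbers did not pair the samples. Figures were drawn with matplotlib 3.10.9 (Python 3.11.15).

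The members and all gene lists were chosen with earlier results of these data known. Named genes were every member, every tested neighbour, up to 4 genes with the largest called change per comparison of the other 2 lists, and the 2 genes most like a member whose group means span at least 1. Alternatives covered scaling, offset, background correction, filters, array weights, replicate block, the arrays fitted, the brightest arrays and each replicate left out. A filter on signal was chosen after seeing the data. Genes of the other 2 lists are named for the comparisons within a chip only, which is narrower than that rule. One gene that the likeness rule named is not reported here.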

Additional observations from a re-analysis of the deposited data

Results flagged for a closer look

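For 5 of the genes the effect of Lin28a loss differed between the lines with and the lines without Lin28b loss, by the test of the interaction. Lin28b was above background on no array, and line and genotype cannot be told apart. The log2 difference of the effects was -2.42 for Grb10 (-1.68 in double loss against Lin28b loss, 0.74 in Lin28a loss against wild type), -1.08 for Peg3 (-0.02 and 1.06), -0.98 for Ndn (0.65 and 1.63), -0.77 for Impact (-0.25 and 0.52) and 0.41 for Gnas (0.01 and -0.4). Ndn, Impact and Gnas were called in the fit of 9920 genes, where 37.8% had an interaction, and Grb10 and Peg3 in the fit without a filter, where 14.9% did. The Gnas call was lost in 10 of 20 alternatives. That of Impact was lost when arrays were scaled to a common median (-0.53, adjusted p = 0.385). The calls of Ndn, Grb10 and Peg3 held in all 21, 19 and 19 of their alternatives.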

How the results depend on the processing

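Scaling arrays to a common median put the median log2 difference of all genes at -0.23 in Lin28b loss and -0.14 in double loss against wild type, -0.15 in double loss against Lin28a loss and 0.24 in Lin28a loss against Lin28b loss, and left 1 member changed in Lin28a loss against wild type, 0 in Lin28b loss against wild type, 1 in double loss against wild type, 1 in double loss against Lin28b loss, 0 in double loss against Lin28a loss, 1 in Lin28a loss against Lin28b loss, 1 for the interaction and 1 with the chip as a block. It also reversed the Gnas difference between Lin28a loss and Lin28b loss (0.02). Over all genes it changed the split of calls: 982 of 1401 were higher in Lin28a loss against wild type, against 1817 of 3645, 444 of 1726 in double loss against wild type, against 1781 of 3676, and 380 of 1804 in Lin28b loss against wild type, against 1877 of 3585. It called 811 of 3211 genes higher in double loss against Lin28a loss, against 2623 of 5355, 2562 of 3228 in Lin28a loss against Lin28b loss, against 2519 of 5306, and 550 of 788 with the chip as a block, against 1051 of 2188. The cause was not tested. Without a filter on dim genes, which tests more members, 4 members changed in Lin28b loss and 4 in double loss against wild type, 4 in double loss against Lin28a loss, 5 in Lin28a loss against Lin28b loss and 5 for the interaction. The counts of Lin28b loss and double loss against wild type include Nnat, which lies at background. With the filter on signal, chosen after seeing the data, they were 4 in double loss against Lin28a loss, 5 in Lin28a loss against Lin28b loss and 5 for the interaction. In double loss against Lin28a loss 1 member changed with genes above background on all 12 arrays, 1 with only the arrays compared and 1 without the 3 brightest arrays.

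Leaving out each replicate in turn, the members changed were 1 to 2 in double loss against wild type (1 without double loss replicate 1), 1 to 3 in double loss against Lin28b loss (1 without Lin28b loss replicate 2), 0 to 3 in double loss against Lin28a loss (1 without Lin28a loss replicate 1, 0 without Lin28a loss replicate 3 or double loss replicate 3) and 1 to 3 in Lin28a loss against Lin28b loss (1 without Lin28b loss replicate 2). Among values of single members, 42 of the alternatives lost a call, 14 gained one, 1 reversed and 947 stayed on the same side of the threshold, called or not; some small uncalled differences of Mest, Impact, Gnas and Peg3 changed sign, each under 1 to 4 alternatives. Replicate numbers did not pair the samples (correlations of deviations of same-numbered arrays -0.57 to 0.69, and 5 of 12 arrays closest to their own number). With the replicate block 4 members changed in Lin28a loss against wild type, and over all genes 3732 against 3645. Depth is not defined for arrays; signals near background limit Plagl1, Nnat and Peg10.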
